A study of Mus musculus with 40 samples.

Results

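Immediate early genes are switched on within minutes of a stimulus from factors that the cell already holds, without new protein synthesis. Among the best known inducers are serum response factor, which binds CArG boxes in promoters, and CREB, which binds cyclic AMP response elements. Many of their messages carry AU-rich elements in the 3′ untranslated region and are removed again soon, and contracting muscle is one of the tissues in which such pulses are known. Described here are 9 of these genes, chosen by name, of 23621 genes in the table: Egr1, Egr2 and Egr3, zinc finger transcription factors that bind GC-rich sites; Arc, best known in neurons for its part in synaptic plasticity; Ier2, Ier3 and Ier5, named for their immediate early response; Zfp36, which encodes tristetraprolin, a protein that binds AU-rich elements and brings in the deadenylase complex; and Btg2, an antiproliferative protein that also binds deadenylases. The 9 genes, and the gene lists set beside them below, were chosen with earlier results of these data known. All 9 had a row in the table and all passed the filter on low counts in both muscles.

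The libraries came from C57BL/6 mice, with no genetic alteration named in the labels and neither age nor sex stated there. Treadmill mice had run to exhaustion in a session at zeitgeber time (ZT, hours after lights on) 12 or 0; their quadriceps was taken at the end of the run (+0h, labelled ZT12.5 or ZT0.5) or 3 h later (+3h, labelled ZT15.5 or ZT3.5). Sedentary mice gave quadriceps at ZT0, ZT4, ZT12 and ZT16, so each of these 8 groups held 3 libraries, and control times differed from the treadmill times by 0.5 h. Gastrocnemius came from mice with access to a running wheel by day or by night, taken at ZT16 or ZT4, in 4 groups of 4 libraries; no wheel group without access was analysed here. The labels give no hours of wheel access and do not say whether the animals were running when taken.

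Totals per library ran from 27352875 to 79491649 estimated counts in quadriceps and from 45010256 to 70033483 in gastrocnemius. Within a library, the count behind a value ran from 9 for Egr3 to 33761 for Egr1. Levels are in CPM, the count scaled by the normalised library size. A difference between groups is a log2 fold change, given with its standard error (SE), and a gene is said to have risen or fallen where edgeR's quasi-likelihood test gave an adjusted p under 0.05. Both muscles carried their fast fibre markers, 10 of 10 with a mean of at least 1 CPM. All 5 neutrophil markers had means under 1 CPM in either muscle. The summed slow fibre markers ran from 67.6 to 2328 CPM in quadriceps, which the labels call glycolytic, and the adipocyte markers from 706 to 3791 CPM. In whole tissue, fewer cells of a type and less RNA per cell cannot be told apart.

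The 9 genes are short. In the GENCODE vM21 annotation, with 1 transcript chosen for each gene, 2 members, Ier2 and Ier5, had 1 exon, 6 had 2 exons and Arc had 3, whereas the median of 21866 coding genes was 7 exons and 25.3% had 3 or fewer. The longest of the chosen transcripts spanned 5237 bases of genome (Egr3), a length that 22.1% of coding genes do not exceed by the same measure; the whole locus of Egr2, with its several starts, spans 7720 bases. The core of an AU-rich element, TATTTAT, lay in the 3′ untranslated region of 3 members: 4 times in Ier3, 3 times in Zfp36 and 1 time in Btg2. It was found in 31.4% of 9112 genes whose 3′ untranslated region was within the same range of lengths. A window of 27 bases around 1 match of each is shown, since these 3 messages include the pair whose own proteins act in message decay. Where a gene had several matches, the one with most copies of ATTTA in its window was taken. Capitals mark the element (GRCm38, from GENCODE).
Ier3, chr17:35822482-35822508, + strand: gtctaattaaTATTTATgTATTTATgt
Zfp36, chr7:28376967-28376993, − strand: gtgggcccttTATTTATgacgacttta
Btg2, chr1:134077250-134077276, − strand: aatgaagagcTATTTATacatgttttt

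Promoter sequences from RefSeq (GRCm38.p6) were matched for 5 members, Egr2, Ier3, Ier5, Zfp36 and Btg2. The 250 bases before the start were searched on both strands for 7 motifs, with these shares among 32851 promoters: the CArG box (1.47%), the cyclic AMP response element TGACGTCA (1.55%), its core TGACG, which the full element contains (17.8%), the AP-1 site TGANTCA (6.75%), the EGR sites GCGGGGGCG and GCGTGGGCG (3.06%), the E-box CACGTG (6.02%) and the TATA box TATAAA (12.4%). Positions are those of a match's first base relative to the start. Of 5 starts listed for Egr2, the first of those with most bases in a CArG box or TGACG match is shown. It had a CArG box at -72 and the TGACG core at -111 and, on the other strand, at -55. The start with its window at 67535249 had neither, only an E-box at -27. The start with its window at 67537316 had a CArG box and no core. The shares above are for single promoters, so a start chosen from 5 is not comparable with them. Zfp36 had a CArG box at -58 and an EGR site at -105. Btg2 had the full cyclic AMP response element at -166. None of the 7 motifs was found in these windows for Ier3 and Ier5. The stretches with a match are shown because Egr2, Zfp36 and Btg2 moved together after the runs described next; capitals mark CArG boxes, the full cyclic AMP response element and its core, read on either strand.
Egr2, chr10:67537619-67537868, + strand: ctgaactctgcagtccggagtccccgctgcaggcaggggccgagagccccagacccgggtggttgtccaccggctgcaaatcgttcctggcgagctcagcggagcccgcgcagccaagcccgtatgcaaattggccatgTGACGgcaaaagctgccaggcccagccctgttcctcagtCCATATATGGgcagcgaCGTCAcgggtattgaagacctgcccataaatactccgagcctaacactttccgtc
Zfp36, chr7:28379267-28379296, − strand: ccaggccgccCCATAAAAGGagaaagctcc
Btg2, chr1:134079156-134079405, − strand: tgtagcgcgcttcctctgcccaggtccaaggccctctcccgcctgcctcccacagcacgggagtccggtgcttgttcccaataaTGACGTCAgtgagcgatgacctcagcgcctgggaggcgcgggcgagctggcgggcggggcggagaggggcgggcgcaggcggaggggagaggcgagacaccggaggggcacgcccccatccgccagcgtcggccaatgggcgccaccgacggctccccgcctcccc
A match is a description of letters and says nothing of whether a factor bound there.

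The first comparison asks how exhausting exercise acted on these genes at once, at either end of the active phase. Egr1, Egr2, Egr3, Arc, Ier2, Zfp36 and Btg2 stood higher at +0h than in sedentary muscle after the ZT12 run and after the ZT0 run, and Ier3 and Ier5 passed the test in neither. The 7 of 9 that rose compare with 3.19% of all 15097 genes tested after the ZT12 run and 4.29% after the ZT0 run. No member fell, against 1.41% and 2.53% of all genes. Since the members were chosen with earlier results of these data known, these shares describe them and test nothing. The median log2 fold change of the members was 2.60 for the ZT12 run and 3.05 for the ZT0 run; the median over all genes was within 0.01 of 0 in either. For 8 of 9 members, all but Ier3, every +0h library lay above every sedentary library of its session, which held for 10.7% of all genes after the ZT12 run and 12.9% after the ZT0 run.

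**Figure D1:**
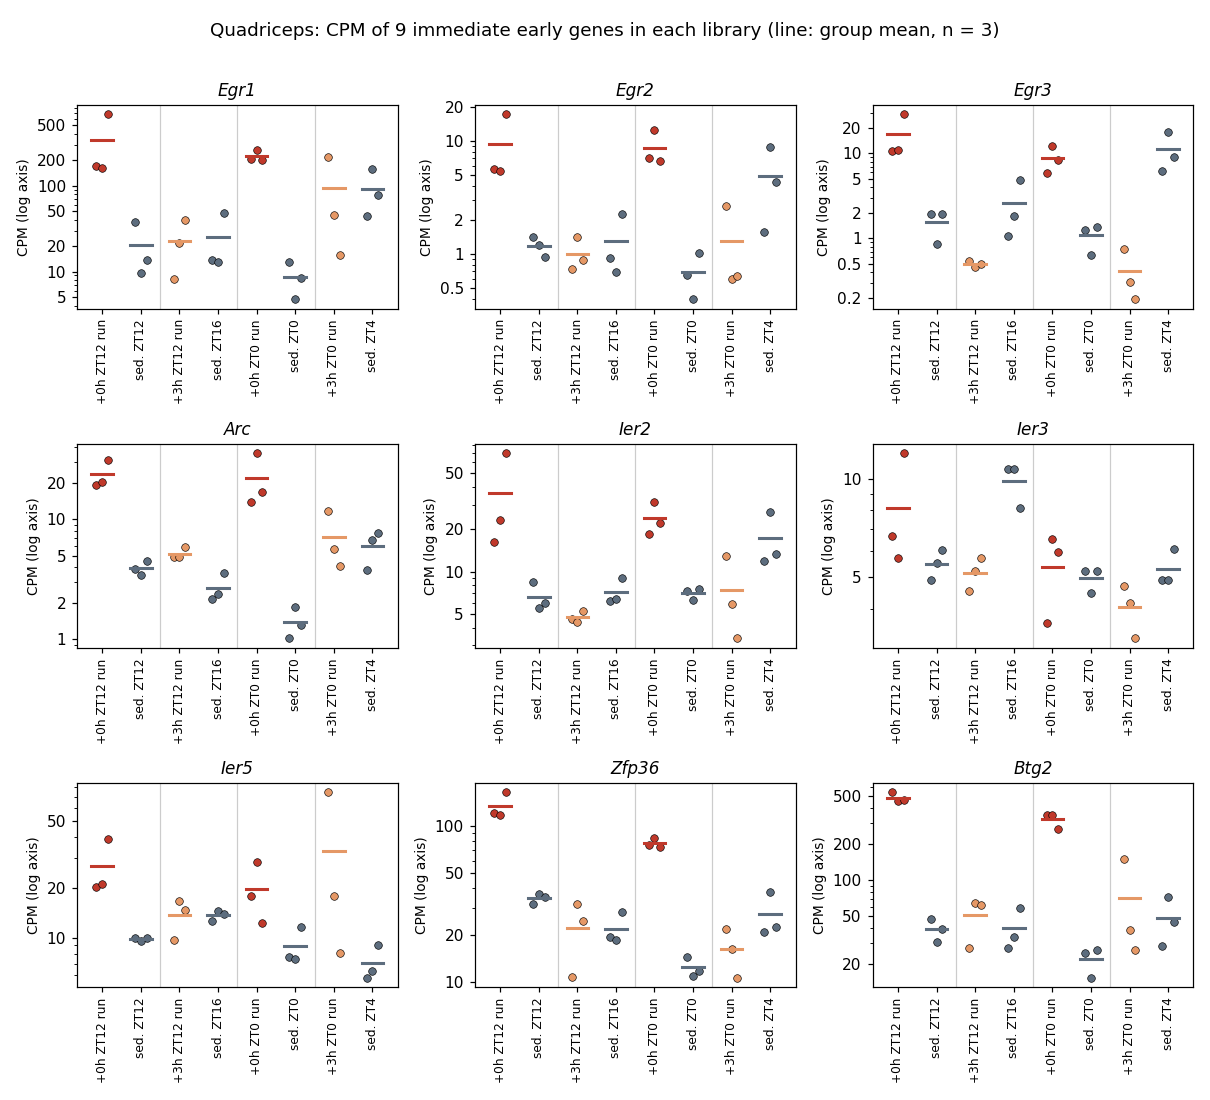
Level of each gene in the 24 quadriceps libraries, in CPM on a log axis; points are libraries and lines are group means of 3, with each treadmill group left of its sedentary control. Zfp36 and Btg2 at +0h stand clear of every sedentary library in either session, whereas Egr1 at +3h of the ZT0 run spans 15.7 to 216 CPM.

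Of the transcription factors, Egr1 (gene identifier 13653, chromosome 18, 34861207 to 34864956, GRCm38.p6) had 168, 159 and 678 CPM at +0h of the ZT12 run, against 37.7, 9.62 and 13.5 CPM in sedentary ZT12 muscle. After the ZT0 run it had 205, 262 and 198 CPM, against 12.8, 4.76 and 8.31 CPM in sedentary ZT0 muscle. The groups did not overlap in either session, and 1 library of the ZT12 run, replicate 3, stood far above the other two. The log2 fold change was 4.05 (SE 1.00, adjusted p = 0.027) for the ZT12 run and 4.70 (SE 1.04, adjusted p = 0.011) for the ZT0 run. The ZT12 call was lost without that replicate (3.01, adjusted p = 0.101), without sedentary ZT12 replicate 2 (3.71, adjusted p = 0.112) and without sedentary ZT12 replicate 3 (3.82, adjusted p = 0.0880).

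Egr2 (chromosome 10, 67534469 to 67542188), best known for its part in nerve myelination, had 5.58, 5.41 and 17.2 CPM at +0h of the ZT12 run, against 1.41, 1.19 and 0.93 CPM in sedentary ZT12 muscle. It had 7.06, 12.4 and 6.65 CPM at +0h of the ZT0 run, against 0.651, 0.397 and 1.01 CPM in sedentary ZT0 muscle. No treadmill library of Egr2 was as low as any control, and replicate 3 of the ZT12 run was again the highest. Its log2 fold changes were 3.00 (SE 0.70, adjusted p = 0.018) for the ZT12 run and 3.71 (SE 0.74, adjusted p = 0.0050) for the ZT0 run. For the ZT12 run the Egr2 call was lost whichever of its 3 controls was left out (adjusted p from 0.0641 to 0.0682) and without the +0h replicate 3 (adjusted p = 0.0822).

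Egr3 (chromosome 14, 70077317 to 70082613), which is needed for muscle spindles to form, had 10.6, 10.8 and 28.97 CPM at +0h of the ZT12 run, against 1.92, 0.856 and 1.95 CPM in sedentary ZT12 muscle. It had 5.85, 12.2 and 8.46 CPM at +0h of the ZT0 run, against 1.24, 0.640 and 1.38 CPM in sedentary ZT0 muscle. The +0h libraries lay above all controls of their session, by 3.41 on the log2 scale for the ZT12 run (SE 0.60, adjusted p = 0.0022) and 3.05 for the ZT0 run (SE 0.61, adjusted p = 0.0054).

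Arc (chromosome 15, 74669081 to 74672570) had 19.6, 20.5 and 31.4 CPM at +0h of the ZT12 run, against 3.84, 3.42 and 4.54 CPM in sedentary ZT12 muscle. It had 14.1, 35.7 and 16.99 CPM at +0h of the ZT0 run, against 1.01, 1.86 and 1.32 CPM in sedentary ZT0 muscle. The sedentary libraries were tight around their own level at each time, and the lower one belonged to ZT0. The log2 fold change was 2.60 (SE 0.41, adjusted p = 0.00093) for the ZT12 run and 3.97 (SE 0.44, adjusted p = 7.0e-05) for the ZT0 run.

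Ier2 and Ier5 are related to each other, while Ier3 shares only the name. Ier2 (chromosome 8, 84661331 to 84662852), a nuclear protein, had 16.3, 23.2 and 69.5 CPM at +0h of the ZT12 run, against 8.41, 5.503 and 5.99 CPM in sedentary ZT12 muscle. It had 18.4, 31.0 and 22.2 CPM at +0h of the ZT0 run, against 7.25, 6.23 and 7.50 CPM in sedentary ZT0 muscle. Ier2 rose by 2.45 (SE 0.51, adjusted p = 0.0084) for the ZT12 run and by 1.77 (SE 0.50, adjusted p = 0.043) for the ZT0 run. The ZT0 call stood near the threshold: it was lost when any 1 of the 6 libraries compared was left out, with adjusted p from 0.0705 to 0.147.

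Ier5 (chromosome 1, 155096367 to 155099636), known as a partner of heat shock factor 1, had 20.2, 21.0 and 39.2 CPM at +0h of the ZT12 run, against 9.96, 9.62 and 9.97 CPM in sedentary ZT12 muscle. Its libraries did not overlap, and yet the log2 fold change of 1.44 did not pass (SE 0.56, adjusted p = 0.19). After the ZT0 run Ier5 had 17.9, 28.6 and 12.3 CPM, against 7.65, 7.42 and 11.7 CPM in sedentary ZT0 muscle (log2 fold change 1.15, SE 0.56, adjusted p = 0.23). Ier3 (chromosome 17, 35821713 to 35822911), a stress-inducible protein that acts on cell survival, had 6.66, 5.75 and 11.9 CPM at +0h of the ZT12 run, against 4.90, 5.54 and 6.05 CPM in sedentary ZT12 muscle (0.56, SE 0.23, adjusted p = 0.22). After the ZT0 run it had 3.63, 6.55 and 5.99 CPM, against 5.22, 4.48 and 5.24 CPM (0.10, SE 0.24, adjusted p = 0.84), with controls inside the range of the treadmill libraries.

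Zfp36 and Btg2, whose proteins act on message decay, were clear of their controls in both sessions. Zfp36 (chromosome 7, 28376784 to 28379228) had 122, 118 and 165 CPM at +0h of the ZT12 run, against 31.8, 36.8 and 35.0 CPM in sedentary ZT12 muscle. It had 76.0, 84.01 and 73.7 CPM at +0h of the ZT0 run, against 14.4, 10.9 and 11.7 CPM in sedentary ZT0 muscle. Treadmill and sedentary libraries of Zfp36 both stood higher in the ZT12 session than in the ZT0 session, and the log2 fold changes were 1.97 (SE 0.33, adjusted p = 0.0015) for the ZT12 run and 2.66 (SE 0.34, adjusted p = 0.00019) for the ZT0 run. Btg2 (chromosome 1, 134074865 to 134079155) had 538, 457 and 469.6 CPM at +0h of the ZT12 run, against 47.3, 30.5 and 39.4 CPM in sedentary ZT12 muscle. It had 347, 349 and 269 CPM at +0h of the ZT0 run, against 24.7, 15.46 and 26.3 CPM in sedentary ZT0 muscle. Its log2 fold changes were 3.64 (SE 0.58, adjusted p = 0.0011) for the ZT12 run and 3.86 (SE 0.59, adjusted p = 0.00084) for the ZT0 run.

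Per kilobase of transcript, Btg2 had the highest level of the 9 genes, 178 CPM at +0h of the ZT12 run and 8.08 CPM in sedentary ZT0 muscle. At +0h of the ZT12 run Egr1 reached 74.6, Zfp36 48.4 and Egr2 3.16 CPM per kilobase.

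The 8 adipocyte markers summed to 706 to 1587 CPM at +0h of the ZT12 run, against 1486 to 3791 CPM in sedentary ZT12 muscle. In the ZT0 session they summed to 1036 to 3329 CPM at +0h, against 1072 to 1730 CPM in sedentary ZT0 muscle, and none of the 8 passed the test in either session. The 7 macrophage markers summed to 115 to 143 CPM at +0h of the ZT0 run, against 81.6 to 97.2 CPM in sedentary ZT0 muscle, and the 5 neutrophil markers to 0.978 to 1.18 CPM, against 0.329 to 0.383 CPM. Neither pair of ranges overlapped, and no marker of either list passed, of 7 and 3 tested. In the ZT12 session both lists overlapped. The 5 erythroid markers summed to 224 to 328 CPM at +0h, against 188 to 218 CPM in sedentary ZT12 muscle. The fast fibre markers summed to 208263 to 220280 CPM at +0h there, against 170409 to 188873 CPM in sedentary ZT12 muscle. The part of these markers in the rise of the members was not tested. With an adipocyte score in the fit, the ZT12 log2 fold changes were 4.38 for Egr1 (adjusted p = 0.0513) and 2.82 for Egr2 (adjusted p = 0.0648), and that of Ier2 for the ZT0 run was 1.82 (adjusted p = 0.089). The other members called at +0h kept their call with that score. A fit on the 6 libraries of the ZT12 comparison alone called 3 members rather than 7. The calls lost in that fit were those of Egr1 (adjusted p = 0.198), Egr2 (adjusted p = 0.106), Egr3 (adjusted p = 0.0901) and Ier2 (adjusted p = 0.241). The ZT0 responses set against sedentary ZT4 muscle rather than ZT0 muscle called 3, Arc (1.89), Zfp36 (1.53) and Btg2 (2.72). Against sedentary ZT4 muscle the log2 fold changes of the 4 that lost their call were 1.264 for Egr1, 0.85 for Egr2, 0.47 for Ier2 and -0.33 for Egr3, the last in the other direction.

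Of 30 other immediate early genes, 22 rose and 0 fell at +0h of the ZT12 run, with a median log2 fold change of 1.99, and 21 rose and 0 fell after the ZT0 run, with a median of 1.54. Klf4, a Krüppel-like factor, rose by 2.86 (SE 0.29, adjusted p = 2.8e-05) for the ZT12 run, and Maff and Junb, both bZIP factors, rose by 3.39 and 4.59. Junb, Maff and Fosl2 had the smallest p for the ZT0 run, with log2 fold changes of 4.85, 3.25 and 2.64. Among 9 measured relatives and partners, 5 rose after the ZT12 run and 3 after the ZT0 run. Nab2, a corepressor that binds EGR proteins, rose by 1.45 for the ZT12 run (SE 0.28, adjusted p = 0.0042) and had 0.75 for the ZT0 run (SE 0.28, adjusted p = 0.11), while Nab1 had 0.02 and 0.06 and passed in neither. Tob2, an antiproliferative protein related to Btg2, rose by 0.90 (adjusted p = 0.024) and 1.61 (adjusted p = 0.00033). Zfp36l1, a relative of Zfp36, rose by 1.35 for the ZT12 run (adjusted p = 0.0062) and had 0.45 for the ZT0 run (adjusted p = 0.34). Zfp36l2 passed in neither session, at 0.05 and -0.36.

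Of 24 upstream genes for serum response factor, its cofactors, CREB proteins and their kinases, 1 rose after the ZT12 run, and 2 rose and 1 fell after the ZT0 run. Crem, whose products include a cyclic AMP early repressor, rose in both sessions, by 1.02 (SE 0.17, adjusted p = 0.00077) for the ZT12 run and 0.99 (SE 0.16, adjusted p = 0.00084) for the ZT0 run. Of 13 deadenylation genes, Pan3 alone passed, raised by 0.67 (adjusted p = 8.8e-05) for the ZT12 run and 0.47 (adjusted p = 0.0018) for the ZT0 run. Of 12 measured messages known as ZFP36 targets, 4 rose after the ZT12 run and 6 after the ZT0 run; Zfp36 itself is among them. Ptgs2, the inducible cyclooxygenase, rose by 4.09 (adjusted p = 0.00048) and 2.46 (adjusted p = 0.028), and Plaur, the urokinase receptor, by 1.75 (adjusted p = 0.0096) and 2.58 (adjusted p = 0.00060). Of 14 measured EGR target genes, 4 rose in each session, and Egr1 and Egr2 are 2 of those 4. Cdkn1a, the cell cycle inhibitor p21, rose by 1.69 (adjusted p = 0.0029) for the ZT12 run and 1.79 (adjusted p = 0.0016) for the ZT0 run.

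**Figure D2:**
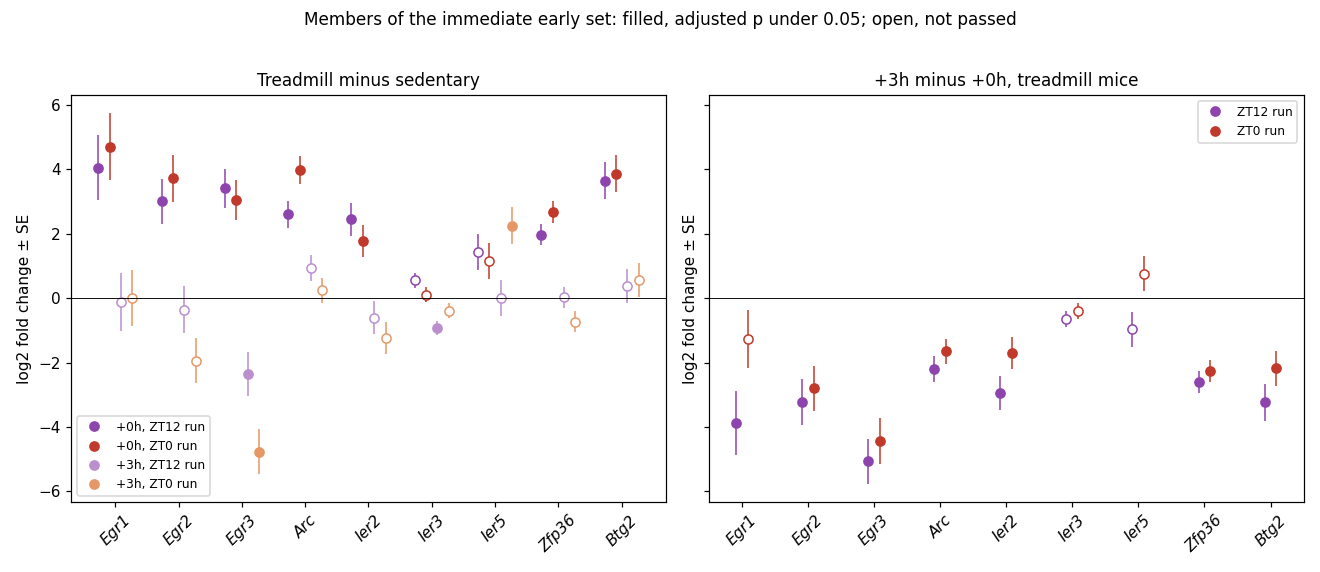
Log2 fold change with its standard error for each gene, treadmill over sedentary muscle on the left and +3h over +0h on the right; filled points had an adjusted p under 0.05. At +0h 7 genes are filled in either session, and at +3h Egr3 stands below its controls in both.

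To compare the sessions, the ZT0 response was subtracted from the ZT12 response in the same edgeR fit. No member passed and neither did any other gene, 0% of 15097. An unadjusted p under 0.05 was reached by 12.7% of genes. DESeq2 gave 16 calls, with no member among them. Arc alone among the members had an unadjusted p under 0.05, with a difference of -1.37 (SE 0.58, adjusted p = 0.33). The differences of the others ran from -0.71 for Egr2 (SE 0.99) to 0.68 for Ier2 (SE 0.70) and the standard errors reached 1.27, for Egr1, so differences of that size in either direction were not detectable at this number of libraries. The sign of these differences depended on the controls. Set against sedentary ZT16 and ZT4 muscle, the difference was 1.25 for Arc, 2.47 for Egr1, 2.01 for Egr2, 1.09 for Zfp36 and 0.89 for Btg2, against -1.37, -0.65, -0.71, -0.69 and -0.22 with the ZT12 and ZT0 controls, and none of these 5 passed. It turned the other way for Ier3 (-0.29, against 0.46) and Ier5 (-0.51, against 0.30). Egr3 passed there (3.03, adjusted p = 0.027), in a fit that called 915 genes.

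At +3h the question is what remained of the response. Of 9 members, 2 fell after the ZT12 run, Egr3 and Ier3, and none rose, against 8.53% and 8.7% of all genes that fell and rose. After the ZT0 run Egr3 fell and Ier5 rose, against 6.63% and 6.96% of all genes. The members' median log2 fold change at +3h was -0.13 for the ZT12 run and -0.39 for the ZT0 run.

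Egr3 at +3h was lower than in any other quadriceps group. It had 0.541, 0.461 and 0.492 CPM at +3h of the ZT12 run, against 1.06, 1.82 and 4.85 CPM in sedentary ZT16 muscle (log2 fold change -2.37, SE 0.68, adjusted p = 0.023). It had 0.754, 0.309 and 0.192 CPM at +3h of the ZT0 run, against 6.23, 18.01 and 9.11 CPM in sedentary ZT4 muscle (-4.77, SE 0.70, adjusted p = 0.00024). No +3h library reached its controls, and the range of the +3h ZT12 libraries also lay under that of sedentary ZT0 muscle, the lowest sedentary group. The size depended on the control: set against sedentary ZT12 muscle the ZT12 value was -1.66 (adjusted p = 0.118), and set against sedentary ZT0 muscle the ZT0 value was -1.39 (adjusted p = 0.255). The ZT12 call was also lost without sedentary ZT16 replicate 3 (-1.54, adjusted p = 0.136) and without any 1 of the +3h replicates 1, 2 and 3 (adjusted p from 0.0585 to 0.0807). A fit on the groups of that comparison alone lost it too (-2.38, adjusted p = 0.0716).

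Ier3 had 4.56, 5.23 and 5.71 CPM at +3h of the ZT12 run, against 10.7, 10.7 and 8.12 CPM in sedentary ZT16 muscle (-0.93, SE 0.23, adjusted p = 0.0085). After the ZT0 run it had 4.71, 4.19 and 3.26 CPM, against 4.91, 4.92 and 6.10 CPM in sedentary ZT4 muscle (-0.39, SE 0.24, adjusted p = 0.32), again with no overlap. Sedentary ZT16 muscle had the highest mean of all quadriceps groups for Ier3; against sedentary ZT12 muscle the value was -0.09 (adjusted p = 0.84).

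Ier5 was the member that rose at +3h of the ZT0 run, with 1 library far above the others. It had 74.2, 17.7 and 8.08 CPM, against 5.78, 6.29 and 9.09 CPM in sedentary ZT4 muscle (2.24, SE 0.57, adjusted p = 0.015), so the groups overlapped. Without +3h replicate 1 the log2 fold change was 0.88 (adjusted p = 0.153); the call was also lost without sedentary ZT4 replicate 1 (adjusted p = 0.0652) or replicate 2 (adjusted p = 0.0594). The same library was the highest of its group for all 9 members: across the 3 libraries Egr1 had 216, 45.4 and 15.7 CPM and Btg2 149.8, 38.2 and 26.1 CPM. Without it Egr2 fell by 2.96 (adjusted p = 0.0240) and Ier2 fell by 1.89 (adjusted p = 0.0312) at +3h of the ZT0 run; with it neither passed (-1.94, adjusted p = 0.074, and -1.24, adjusted p = 0.12). Egr2 also passed without sedentary ZT4 replicate 1 (-2.38, adjusted p = 0.0327). After the ZT12 run Ier5 had 9.71, 16.6 and 14.7 CPM, against 12.7, 14.4 and 13.8 CPM in sedentary ZT16 muscle (0.00, SE 0.55).

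The other members did not pass at +3h in either session. At +3h Egr1 had 8.20, 21.3 and 39.3 CPM after the ZT12 run, against 13.7, 12.9 and 48.6 CPM in sedentary ZT16 muscle (-0.13, SE 0.90), and after the ZT0 run its log2 fold change was 0.00 (SE 0.88) against sedentary ZT4 muscle. Arc at +3h lay above its controls in the ZT12 session without overlap, at 4.83, 4.83 and 5.87 CPM, against 2.15, 2.37 and 3.57 CPM in sedentary ZT16 muscle, and did not pass (0.94, SE 0.41, adjusted p = 0.13). Ier2 lay below its controls without overlap there, at 4.58, 4.37 and 5.22 CPM, against 6.21, 6.39 and 9.002 CPM in sedentary ZT16 muscle (-0.61, SE 0.51, adjusted p = 0.48). In a fit on these groups alone both passed, Arc at 0.94 (adjusted p = 0.020) and Ier2 at -0.61 (adjusted p = 0.041). Egr3 lost its ZT12 call in that fit (-2.38, adjusted p = 0.0716). Zfp36 was 0.02 (SE 0.32) after the ZT12 run and -0.74 (SE 0.33, adjusted p = 0.16) after the ZT0 run, where Egr2 passed with DESeq2 (-1.91, adjusted p = 0.034). Set against sedentary ZT0 muscle, the +3h libraries of the ZT0 run gave 4 calls, all upward: Egr1, Arc, Ier5 and Btg2. The difference of the +3h responses between sessions, ZT12 minus ZT0, passed for no member, against 0.649% of genes raised and 0.941% lowered. It was -2.24 for Ier5 (SE 0.79, adjusted p = 0.20) and 2.40 for Egr3 (SE 1.02, adjusted p = 0.31), the 2 members with an unadjusted p under 0.05, which 13% of all genes had; with DESeq2 no member was called. Set against sedentary ZT12 and ZT0 muscle the Egr3 difference was -0.27 (adjusted p = 0.94), the other direction, and that of Ier5 was -1.43 (adjusted p = 0.42). Without +3h ZT0 replicate 3 the Ier5 difference passed (-2.70, adjusted p = 0.048).

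In the treadmill mice alone, +3h against +0h, 7 of 9 members fell in the ZT12 session and 6 in the ZT0 session, against 8.47% and 7.8% of all genes; none rose, against 7.28% and 6.33%. Every +3h library lay below every +0h library for 9 of 9 members in the ZT12 session and for 6 in the ZT0 session, against 16.5% and 13.1% of all genes. Egr3 fell by 5.07 on the log2 scale in the ZT12 session (SE 0.69, adjusted p = 6.2e-05) and had a log2 fold change of -4.44 in the ZT0 session (SE 0.70, adjusted p = 0.00037), the furthest of the members in either. Zfp36 had 10.7, 31.7 and 24.5 CPM at +3h and 122, 118 and 165 CPM at +0h of the ZT12 run (-2.60, SE 0.34, adjusted p = 4.1e-05). In the ZT0 session it had 21.8, 16.2 and 10.6 CPM at +3h and 76.0, 84.01 and 73.7 CPM at +0h (-2.26, SE 0.34, adjusted p = 0.00021). Btg2 fell by 3.24 in the ZT12 session (SE 0.57, adjusted p = 0.00078) and by 2.17 in the ZT0 session (SE 0.54, adjusted p = 0.013). Egr1 fell by 3.86 in the ZT12 session (SE 0.99, adjusted p = 0.013), while its ZT0 value was -1.26 (SE 0.90, adjusted p = 0.39). Ier5 did not pass in either, at -0.97 (SE 0.55) in the ZT12 session and 0.75 (SE 0.55) in the ZT0 session. Fitted on the groups of the ZT0 recovery alone, 2 members were called rather than 6, and without +3h ZT0 replicate 2 or replicate 3 the calls of Egr2 (adjusted p = 0.0663 and 0.0556) and Ier2 (adjusted p = 0.119 and 0.115) were lost. The ZT0 call of Btg2 was also lost without +3h replicate 2 (adjusted p = 0.0653), that of Arc without +0h replicate 2 (adjusted p = 0.0504), and that of Ier2 without +0h replicate 2 or 3 (adjusted p = 0.0884 and 0.0581). In the ZT12 session the call of Egr1 was lost without +0h replicate 3 (adjusted p = 0.0654) and without +3h replicate 1 or 2 (adjusted p = 0.0534 and 0.0553).

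Of the 30 other immediate early genes, 9 were higher and 2 lower than sedentary muscle at +3h of the ZT12 run, and 10 higher and 5 lower at +3h of the ZT0 run. Ppp1r15a, Dusp2, Maff and Nr4a3 had the smallest p for the ZT12 run, with log2 fold changes of 1.37, 2.48, 2.23 and 4.27. Nfil3 rose by 1.91 for the ZT0 run, whereas Klf2, a vascular Krüppel-like factor, fell by 2.67. Among the relatives and partners, 0 of 9 passed at +3h of the ZT12 run. After the ZT0 run Nab1 rose by 0.38 (adjusted p = 0.013), and Tob2 fell by 0.90 (adjusted p = 0.011) and Ier5l by 1.08 (adjusted p = 0.018). Of the 24 upstream genes, 2 rose and 5 fell in each session; Mrtfa, a cofactor of serum response factor, fell by 1.08 (adjusted p = 3.1e-05) for the ZT12 run and by 0.69 (adjusted p = 0.0026) for the ZT0 run. Of the 13 deadenylation genes, 1 rose and 3 fell for the ZT12 run, among them Cnot9 by 0.45 (adjusted p = 0.00095), and none passed for the ZT0 run. Of the ZFP36 targets, 2 rose and 1 fell for the ZT12 run and 3 rose and 1 fell for the ZT0 run; Ccl2, a chemokine, rose by 3.04 (adjusted p = 0.0027) for the ZT0 run. Of the EGR targets, Cdkn1a rose by 1.85 and Pdgfa fell by 0.73 for the ZT12 run, and Vegfa rose by 0.52, F3 by 0.71 and Nab1 by 0.38 for the ZT0 run. The neutrophil markers S100a9 and S100a8 rose at +3h of the ZT12 run, by 4.61 (adjusted p = 0.0024) and 3.40 (adjusted p = 0.039). The 5 neutrophil markers summed to 0.32 to 3.18 CPM there, with a median of 0.34 CPM, against 0.065 to 0.18 CPM in sedentary ZT16 muscle. The highest sum thus came from 1 library far above the others, which were near the floor. In the same libraries the fast fibre markers summed to 188324 to 213336 CPM, against 151972 to 179079 CPM. The endothelial markers summed to 330 to 348 CPM, against 298 to 315 CPM. The satellite cell markers summed to 27.5 to 28.6 CPM, against 23.0 to 24.2 CPM. The part of these markers in the values of the 9 genes was not tested.

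Resting muscle differed across the day in these genes. Over the 4 sedentary groups an F test passed for 5 of 9 members, Egr2, Egr3, Arc, Ier3 and Zfp36, against 17.1% of all genes. Egr3 averaged 1.09 ± 0.393 CPM at ZT0, 11.1 ± 6.14 at ZT4, 1.58 ± 0.63 at ZT12 and 2.58 ± 2.01 at ZT16 (SD, n = 3 each; adjusted p = 0.0013). Egr1 had 8.62 ± 4.02, 92.4 ± 57.5, 20.3 ± 15.2 and 25.1 ± 20.4 CPM at ZT0, ZT4, ZT12 and ZT16 and did not pass (adjusted p = 0.057). Replicate 2 of sedentary ZT4 was the highest there for Egr1 (43.8, 156 and 77.6 CPM), Egr2 (1.55, 8.79 and 4.27 CPM), Egr3, Ier2 (11.9, 26.8 and 13.4 CPM), Zfp36 and Btg2. Without it the adjusted p of the F test for Egr2 was 0.192, and that call was also lost without sedentary ZT0 replicate 1 or 2 or sedentary ZT4 replicate 3 (adjusted p from 0.0508 to 0.0518). The call of Ier3 was lost without sedentary ZT16 replicate 2 (adjusted p = 0.0553). The call of Zfp36 was lost without sedentary ZT0 replicate 2 or 3 or sedentary ZT12 replicate 2 (adjusted p from 0.0638 to 0.0767) and with an adipocyte score in the fit (0.0658). Ier3 was highest at ZT16, with 4.98 ± 0.436, 5.31 ± 0.686, 5.496 ± 0.575 and 9.84 ± 1.49 CPM at ZT0, ZT4, ZT12 and ZT16 (adjusted p = 0.010), and Zfp36 at ZT12, with 12.4 ± 1.83, 27.1 ± 9.40, 34.5 ± 2.54 and 22.0 ± 5.22 CPM (adjusted p = 0.024).

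Between single times, Egr3 alone rose at ZT4 relative to ZT0, by 3.38 (SE 0.61, adjusted p = 0.031), in a comparison in which 0.0927% of all genes rose. The call was lost without any of 5 of the 6 libraries, all but sedentary ZT4 replicate 1 (adjusted p from 0.0835 to 0.137). DESeq2 called 5 members there, Egr1, Egr2, Egr3, Arc and Zfp36, among 156 genes in all, against 29 genes in the edgeR fit. Arc and Zfp36 were higher at ZT12 than at ZT0, by 1.47 (SE 0.44, adjusted p = 0.031) and 1.48 (SE 0.33, adjusted p = 0.0059), against 7.58% of genes; the Arc call was lost without any of 5 of the 6 libraries, all but sedentary ZT0 replicate 2 (adjusted p from 0.0571 to 0.114). In the same libraries 6 of 9 endothelial markers were lower at ZT12, summing to 229 to 304 CPM, against 326 to 383 CPM at ZT0. The fast fibre markers, 2 of 10 of them higher at ZT12, summed to 170409 to 188873 CPM, against 146643 to 166409 CPM at ZT0. The 5 neutrophil markers summed to 0.130 to 0.233 CPM at ZT12, against 0.329 to 0.383 CPM, with none of the 3 tested passing. Over all genes, 1292 were lower at ZT12. The part of these markers in Arc and Zfp36 was not tested. Ier3 was higher at ZT16 than at ZT12 (0.84, SE 0.23, adjusted p = 0.028; 5.25% of genes rose) and than at ZT4 (0.89, SE 0.23, adjusted p = 0.023; 3.49% rose). Egr3 was lower at ZT16 than at ZT4 (-2.10, SE 0.56, adjusted p = 0.029), as were 3.67% of genes; the call was lost without sedentary ZT4 replicate 2 (-1.57, adjusted p = 0.144) or 3 and without sedentary ZT16 replicate 1 or 2. Each Ier3 call was lost without any of 4 of its 6 libraries, with adjusted p from 0.0846 to 0.101 against ZT12 and from 0.0777 to 0.0976 against ZT4.

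Ordered by mean, +0h of the ZT12 run was the highest quadriceps group for 7 members, Ier3 was highest in sedentary ZT16 muscle and Ier5 at +3h of the ZT0 run. Neighbours in these orders mostly overlapped. Zfp36 and Btg2 were exceptions: +0h of the ZT12 run lay above +0h of the ZT0 run without overlap, and that group lay above all others. Sedentary ZT0 muscle was the lowest group for Egr1, Egr2, Arc, Zfp36 and Btg2.

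Across the 24 quadriceps libraries the 7 genes that rose at +0h varied together. The 21 pairs among Egr1, Egr2, Egr3, Arc, Ier2, Zfp36 and Btg2 had Pearson correlations of log2 CPM from 0.66 to 0.94, with a median of 0.86. Ier3 stood apart, with correlations of 0.12 to 0.39 to the 8 others, and Ier5 lay between, at 0.17 to 0.67. These are descriptions over libraries that share the treadmill groups, with no test. The most similar genes outside the set were Fosb, Sertad1 and Fos for Egr1 (0.94, 0.93 and 0.90), Junb for Egr2 (0.92) and Arc (0.92), Tnfrsf10b for Egr3 (0.94) and Sertad1 for Ier2 (0.93). They were Sf3a1 for Ier3 (0.87), Otud1 for Ier5 (0.92), Tmem252 for Zfp36 (0.96) and Ccnl1 for Btg2 (0.96).

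**Figure D3:**
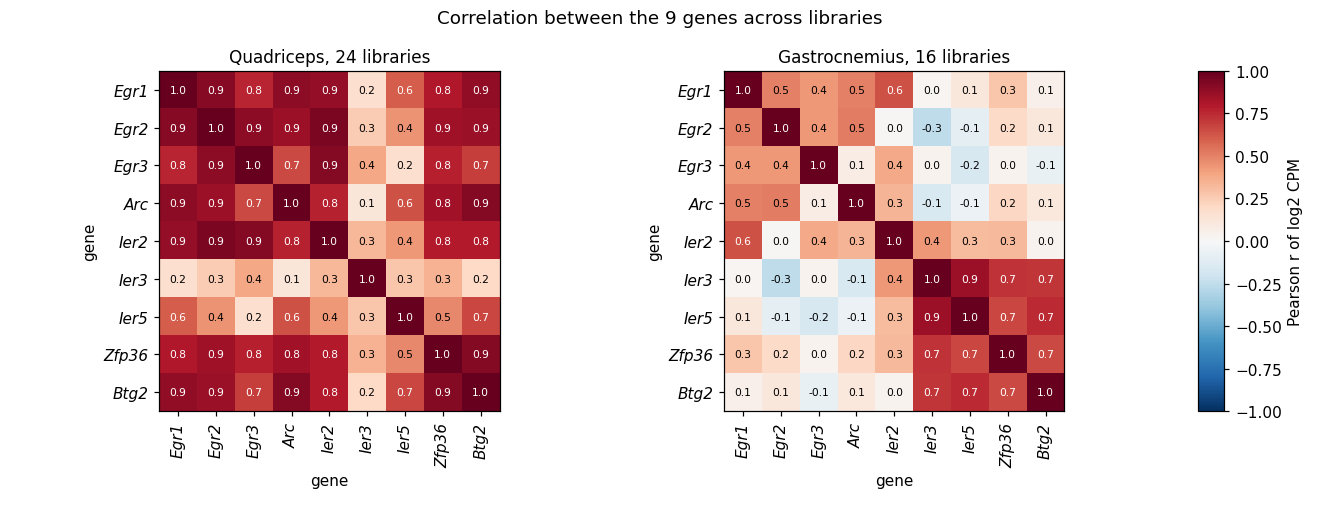
Pearson correlation of log2 CPM between the 9 genes, over 24 quadriceps libraries on the left and 16 gastrocnemius libraries on the right; cells give r to 1 decimal. In quadriceps Ier3 is weakly related to the rest, and in gastrocnemius Ier3, Ier5, Zfp36 and Btg2 form a block with r from 0.66 to 0.86.

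In gastrocnemius of mice with a wheel the same genes divided differently. Ier3, Ier5, Zfp36 and Btg2 differed between groups, while Egr1, Egr2, Egr3, Arc and Ier2 passed in none of the 5 comparisons. Egr2 by day was -0.71 for ZT16 over ZT4, without overlap (SE 0.26, adjusted p = 0.073). Ier2 was -0.40 at ZT16, day over night, without overlap (SE 0.13, adjusted p = 0.17). In that comparison the SE was 0.31 for Egr1, 0.26 for Egr2, 0.35 for Egr3 and 0.25 for Arc. Among the 4 that differed it was at most 0.20, for Btg2, so equal differences were harder to detect in Egr1, Egr2, Egr3 and Arc. Leaving out 1 library, Ier2 passed by night without night wheel ZT4 replicate 1, and Egr2 by day for ZT16 over ZT4 without day wheel ZT16 replicate 3 (-0.91, adjusted p = 0.041). At ZT16, in the dark phase, Zfp36 alone passed as lower with the wheel by day than by night, against 0.289% of all genes that fell. DESeq2 called Ier3 and Ier5 as well, among 369 genes in either direction, against 82 in the edgeR fit; 6 members lay lower by day without overlap, against 3.17% of genes. At ZT4, in the light phase, all 4 were higher with the wheel by day and without overlap, against 6.36% of genes that rose and 10% that lay higher. In mice with the wheel by night the 4 were higher at ZT16 than at ZT4, again without overlap, against 9.41% of genes that rose and 10.5% that lay higher. In the same night wheel libraries 4 of 9 endothelial markers were lower at ZT16, summing to 251 to 319 CPM, against 323 to 354 CPM at ZT4. The fibroblast markers, 2 of 6 of them lower, summed to 552 to 699 CPM at ZT16, against 726 to 927 CPM at ZT4. The 5 neutrophil markers summed to 0.197 to 0.405 CPM, against 0.813 to 0.926 CPM, with neither of the 2 tested passing. The macrophage markers summed to 67.4 to 76.4 CPM, against 79.2 to 96.3 CPM. The satellite cell markers summed to 21.1 to 25.8 CPM, against 26.4 to 29.5 CPM. The part of these markers in Ier3, Ier5, Zfp36 and Btg2 was not tested.

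Ier3 had 7.68, 6.93, 6.12 and 5.32 CPM with the wheel by day at ZT16, against 9.75, 14.4, 12.4 and 8.41 CPM by night. At ZT4 it had 6.01, 5.29, 7.01 and 5.42 CPM by day, against 4.51, 3.04, 3.45 and 2.66 CPM by night. The day libraries lay below all night libraries at ZT16 and above all of them at ZT4. Its log2 fold change, day over night, was -0.79 at ZT16 (SE 0.18, adjusted p = 0.059) and 0.81 at ZT4 (SE 0.19, adjusted p = 0.013). The ZT16 value passed with DESeq2 (adjusted p = 0.00089), with the replicate block (adjusted p = 0.036), and without night wheel ZT16 replicate 1 (-0.85, adjusted p = 0.046) or replicate 4 (-0.91, adjusted p = 0.026). For ZT16 over ZT4 it was 0.13 with the wheel by day (SE 0.18, adjusted p = 0.69) and 1.73 by night (SE 0.19, adjusted p = 1.4e-05).

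Ier5 had 12.7, 10.9, 9.52 and 11.1 CPM with the wheel by day at ZT16, against 13.2, 14.4, 15.3 and 16.9 CPM by night (-0.44, SE 0.12, adjusted p = 0.098; with DESeq2 0.018). At ZT4 it had 13.9, 10.8, 9.66 and 11.2 CPM by day, against 8.26, 7.61, 6.07 and 6.58 CPM by night (0.68, SE 0.12, adjusted p = 0.0017). The day groups of Ier5 overlapped at the 2 times, and the night groups had the highest and the lowest mean. For ZT16 over ZT4 the log2 fold change was -0.05 by day (SE 0.12) and 1.07 by night (SE 0.12, adjusted p = 1.0e-05).

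Zfp36 had 6.66, 8.19, 8.44 and 8.42 CPM with the wheel by day at ZT16, against 11.8, 11.6, 11.7 and 10.6 CPM by night (-0.52, SE 0.08, adjusted p = 0.0055). At ZT4 it had 8.89, 9.69, 10.2 and 10.5 CPM by day, against 8.17, 6.99, 6.81 and 7.92 CPM by night (0.39, SE 0.08, adjusted p = 0.0045). It passed for time in both schedules, in opposite directions: ZT16 over ZT4 gave -0.30 by day (SE 0.08, adjusted p = 0.016; 7.17% of genes fell) and 0.61 by night (SE 0.08, adjusted p = 3.6e-05). The day call was lost without day wheel ZT16 replicate 1 (adjusted p = 0.0536) or day wheel ZT4 replicate 4 (adjusted p = 0.0550).

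Btg2 had 13.3, 12.6, 11.8 and 11.3 CPM with the wheel by day at ZT16, against 14.6, 20.9, 16.4 and 19.8 CPM by night (-0.55, SE 0.20, adjusted p = 0.24). At ZT4 it had 20.5, 14.6, 24.5 and 13.9 CPM by day, against 12.47, 11.5, 8.17 and 7.39 CPM by night (0.90, SE 0.21, adjusted p = 0.013). Btg2 lost that ZT4 call in a fit on the groups compared alone (0.90, adjusted p = 0.0633). All its day libraries lay below the night libraries at ZT16 and above them at ZT4. For ZT16 over ZT4 Btg2 gave -0.59 by day, with no overlap and no call (SE 0.20, adjusted p = 0.069), and 0.87 by night (SE 0.21, adjusted p = 0.010). The day value passed with DESeq2 (adjusted p = 0.030), with an adipocyte score in the fit (adjusted p = 0.046) and without day wheel ZT4 replicate 4 (-0.70, adjusted p = 0.042).

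**Figure D4:**
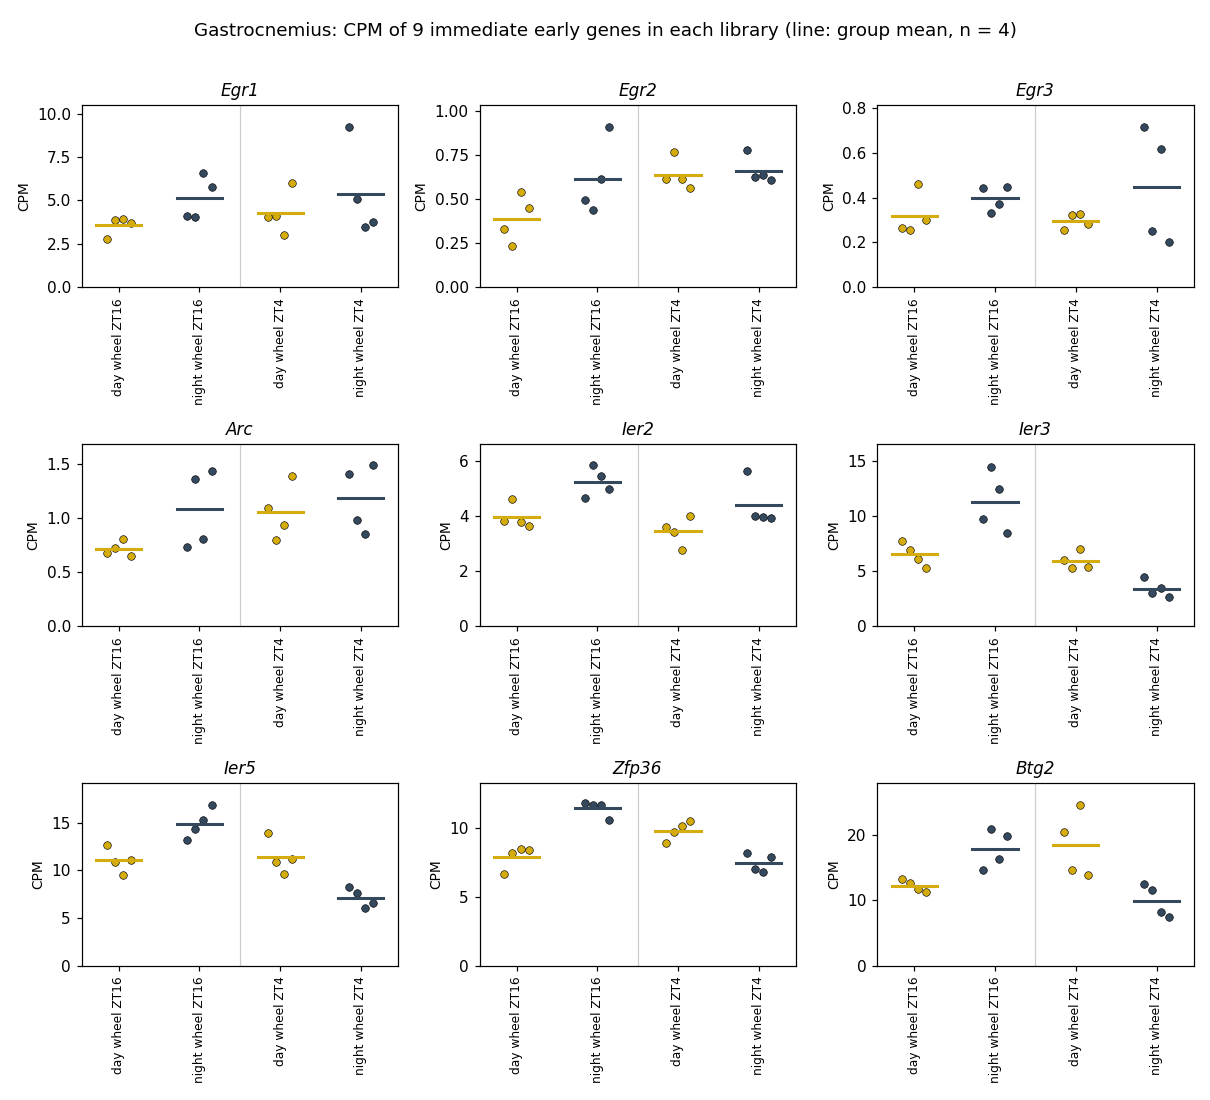
Level of each gene in the 16 gastrocnemius libraries, in CPM on an axis from 0; points are libraries and lines are group means of 4, with the day wheel left of the night wheel at ZT16 and then at ZT4. Ier3, Ier5, Zfp36 and Btg2 are high in the night wheel group at ZT16 and low in the night wheel group at ZT4.

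The difference of ZT16 over ZT4 itself differed between schedules, day minus night, for these 4 genes and for no other member, against 5.07% of all genes with a difference below 0. The difference was -1.60 for Ier3 (SE 0.26, adjusted p = 0.0013), -1.12 for Ier5 (SE 0.17, adjusted p = 0.00057), -0.92 for Zfp36 (SE 0.12, adjusted p = 7.9e-05) and -1.46 for Btg2 (SE 0.29, adjusted p = 0.0067). The count of members that passed was 4 whichever of the 16 libraries was left out. For the other 5 it ran from -0.63 for Egr2 (SE 0.36) to 0.22 for Egr3 (SE 0.49).

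Egr1 in this muscle had group means of 3.58 to 5.38 CPM, Egr2 of 0.388 to 0.663, Egr3 of 0.297 to 0.446, Arc of 0.716 to 1.18 and Ier2 of 3.46 to 5.24 CPM. For Egr1 the night wheel ZT4 libraries spread from 3.45 to 9.24 CPM. The log2 fold change of Egr1, day over night, was -0.51 at ZT16 (SE 0.31, adjusted p = 0.51) and -0.31 at ZT4 (SE 0.30, adjusted p = 0.53). Quadriceps and gastrocnemius came from different experiments and were normalised apart, so their levels are not compared.

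Of 29 other immediate early genes measured in gastrocnemius, 0 were higher and 5 lower with the wheel by day than by night at ZT16, and 9 were higher and 2 lower at ZT4. Over all 14523 genes, 82 passed in either direction at ZT16 and 1907 at ZT4. At ZT16 relative to ZT4, 2 of the 29 were higher and 10 lower by day, and 12 were higher and 0 lower by night. Over all genes, 2159 passed in either direction by day and 2729 by night. The difference between schedules passed for 12 of the 29, 1 above and 11 below 0, with Maff at -1.93 (SE 0.19, adjusted p = 4.5e-06), Nr4a3 at -6.35 (SE 0.67, adjusted p = 0.00012) and Ccn2 at -1.79 (SE 0.21, adjusted p = 0.00014). Of the 9 measured ZFP36 target messages 3 differed between schedules, Zfp36 and Ier3 themselves and Vegfa at -0.74 (SE 0.16, adjusted p = 0.0096). Of the 9 relatives and partners, Tob2 alone differed (-0.71, SE 0.19, adjusted p = 0.033). Pan3 and Cnot4 were the 2 of 13 deadenylation genes that differed, at -0.41 (adjusted p = 0.0060) and -0.38 (adjusted p = 0.0064). Of the 24 upstream genes 3 lay above 0, Rps6ka3, Mrtfa and Crtc1, and of the 14 EGR targets 2 below 0, Vegfa and Ccnd1. For this difference between schedules 1415 of all 14523 genes passed, 736 of them below 0. At ZT4, 6 of 9 endothelial markers were lower with the wheel by day, summing to 262 to 292 CPM, against 323 to 354 CPM by night. The macrophage markers, 1 of 7 of them lower, summed to 59.03 to 74.49 CPM by day, against 79.17 to 96.29 CPM by night. The satellite cell markers, 0 of 4 of them lower, summed to 22.97 to 26.17 CPM, against 26.39 to 29.55 CPM. Over all 14523 genes, 984 were lower by day at ZT4. The part of these markers in the 4 genes was not tested.

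In gastrocnemius the 6 pairs among Ier3, Ier5, Zfp36 and Btg2 had correlations of 0.66 to 0.86 over the 16 libraries, with a median of 0.72. The 20 pairs that joined 1 of these to 1 of the other 5 had a median of 0.04. In quadriceps the same 20 pairs had a median of 0.66. The 4 genes were set apart by their differences between groups of these same 16 libraries, so these gastrocnemius correlations restate that pattern and add nothing to it.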

How the data were processed

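The authors deposited 1 table of estimated counts per gene, with a column for each of 2 lanes of 40 libraries (80 columns). Their tools, per the submitters' processing notes, included the pseudoaligner kallisto (0.46.2), bcl2fastq (2.20.0.422) and DESeq2 (1.26.0), and the builds named are GRCm38.p6 and mm10; the annotation and the step from transcripts to genes are not given in the sources used here. Per the labels' protocols, the library kit was stranded and selected mRNA. The lanes were summed and rounded, and 23614 of 23621 gene identifiers matched a RefSeq symbol.

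Here edgeR 4.0.16 (R 4.3.3, limma 3.58.1) fitted all 24 quadriceps libraries in 1 model and all 16 gastrocnemius libraries in another, by a robust quasi-likelihood fit with TMM scaling after the default filter (minimum count 10), which left 15097 and 14523 genes. P values were adjusted by Benjamini-Hochberg over all genes tested, with a threshold of 0.05. In counts simulated for +0h of the ZT0 run and for day against night wheel at ZT4, median fitted log2 fold changes lay near those set. The altered genes left out the lowest expressed, and differences of responses were not simulated. Correlations used log2 of CPM plus 0.5.

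The members and gene lists were chosen with earlier results of these data known. The text names all members, up to 4 genes of a list with the smallest p in a comparison, any gene of a list of up to 10, and the most similar genes; where a count was 5 or fewer, its genes were named after their values were seen. Descriptions carry a different tag for each library, read as separate animals, and p values measure the spread between these libraries. Replicates of a group differed beyond sampling noise (chi-square per degree of freedom at least 6.18). Same-numbered sedentary ZT4 and ZT0 libraries deviated together (lowest correlation of a pair 0.136, every pair over 0.1), and the replicate block left that comparison at 1 member called. Alternatives tried were DESeq2 1.42.0 and its size factors, no filter, a fit on the groups compared, another sedentary control, an adipocyte score, the replicate block, and leaving out each library.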

Additional observations from a re-analysis of the deposited data

Results flagged for a closer look

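In gastrocnemius the difference of ZT16 over ZT4 was not the same with the wheel by day as by night for 4 genes, by the interaction term of the fit: Ier3 at -1.60, Ier5 at -1.12, Zfp36 at -0.915 and Btg2 at -1.46 on the log2 scale.

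Of 36 gene and group combinations with 4 libraries, 4 held a library far from the others, where chance gives about 1 in 20. Ier2 had 5.64 CPM in night wheel ZT4 replicate 1, the highest of its group, and 4.62 CPM in day wheel ZT16 replicate 2, also the highest. Zfp36 had 6.66 CPM in day wheel ZT16 replicate 1 and 10.6 CPM in night wheel ZT16 replicate 4, each the lowest of its group. Without night wheel ZT4 replicate 1, Ier2 rose at ZT16 relative to ZT4 with the wheel by night (0.40, adjusted p = 0.032), against 0.26 with it (adjusted p = 0.18). No cause was tested for any of these values.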

How the results depend on the processing

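Of 776 recomputed values of the 56 member calls, 683 kept direction and call, 92 kept the direction and lost the call, and 1 took the other direction: Egr3 at +0h of the ZT0 run was -0.33 (adjusted p = 0.782) against sedentary ZT4 muscle. Of the values not called, 94 changed sign and 38 passed under an alternative. Scaling by DESeq2's size factors changed no count of members called. For each setting that moved a count of members by over 1.5 times, the count under it stands before that of the fit reported, with the same pair for all genes in parentheses. With another sedentary control it was 3 and 7 at +0h of the ZT0 run (1133 and 1029), 4 and 2 at +3h of the ZT0 run (2032 and 2052), 0 and 2 at +3h of the ZT12 run (2869 and 2602), and 1 and 0 for the difference of the +0h responses (915 and 0), the 1 being Egr3. With only the groups compared it was 3 and 7 at +0h of the ZT12 run (381 and 695), 1 and 2 at +3h of the ZT0 run (1098 and 2052), 2 and 6 for the ZT0 recovery (647 and 2133), 0 and 1 for sedentary ZT4 against ZT0 (20 and 29), and 2 and 1 for sedentary ZT16 against ZT12 (550.0 and 1377). With DESeq2 it was 5 and 1 for sedentary ZT4 against ZT0 (156 and 29), 3 and 1 for day against night wheel at ZT16 (369 and 82), and 2 and 1 for day wheel ZT16 against ZT4 (2411 and 2159). With an adipocyte score it was 0 and 1 for sedentary ZT16 against ZT12 (907 and 1377), and 2 and 1 for day wheel ZT16 against ZT4 (2257 and 2159). The cause was not tested. With the replicate block 2 members rather than 1 were called for day against night wheel at ZT16 (Ier3 added), and 6 rather than 7 at +0h of the ZT0 run and 5 rather than 6 for the ZT0 recovery (Ier2 lost); apart from sedentary ZT4 against ZT0 the numbers did not pair the libraries.

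Leaving out 1 library at a time, members called numbered 5 to 7 at +0h of the ZT12 run and 6 in every case for the ZT0 run, 1 to 2 and 1 to 3 at +3h of the ZT12 and ZT0 runs, 6 to 8 and 3 to 6 for the recoveries, 0 for the +0h and 0 to 1 for the +3h difference of responses. They numbered 3 to 6 across sedentary times, 0 to 2 for ZT4 against ZT0, 0 to 1 for ZT16 against ZT12, 1 to 2 for ZT12 against ZT0 and 0 to 2 for ZT16 against ZT4. In gastrocnemius they numbered 4 for day against night wheel at ZT4, 1 to 2 at ZT16, 4 to 5 by night and 0 to 2 by day for ZT16 against ZT4, and 4 for the difference between schedules. With 3 libraries a group, Egr1, Ier5 and Ier2 vary by several fold within a group, which limits what their tests can show.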
